A study of Mus musculus with 4 samples.

Results

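The genes described here are the mouse zinc finger genes Zfp700 to Zfp999, by the number in the symbol, without Zfp711. They were chosen by symbol among the protein-coding genes, and 127 of the 55421 genes listed in the count files belonged to them. No measured value entered this rule, but earlier results of these data were known when the genes were chosen. They lie on 16 chromosomes. RNA was measured in 4 libraries of cultured astrocytes that had been differentiated in serum-containing medium from neural stem cells of C57BL/6J mice. The cells of 2 libraries had received a lentivirus with a control short hairpin RNA (shRNA) and those of the other 2 a lentivirus with an shRNA against Phf8. From such a hairpin the cell makes a small RNA, and this silences transcripts that pair with it. All 4 libraries therefore come from C57BL/6J cells that carry a lentivirus, and the labels name no further control such as uninfected cells or a second hairpin. The submitters call the 2 libraries of a group biological replicates, but the labels do not say whether they came from separate cultures, so the p-values may reflect technical spread alone.

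C2H2 zinc fingers are short protein loops held by a zinc ion, and an array of them can read a DNA sequence. In mammals many such proteins also carry a KRAB box, which binds the corepressor Trim28 (KAP1). Trim28 in turn brings the histone H3 lysine 9 (H3K9) methyltransferase Setdb1 and HP1 proteins to the DNA, and the best known targets are endogenous retroviruses and other transposable elements. The KRAB zinc finger genes arose by repeated duplication, lie in tandem clusters and often carry H3K9 methylation themselves. Phf8 encodes a Jumonji histone demethylase that removes methyl groups from H3K9 and from lysine 20 of histone H4. The comparison asked how the transcripts of these zinc finger genes differed between Phf8 shRNA and control shRNA.

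The libraries held 36839530 to 44724759 reads assigned to genes. Levels are given in CPM, the count of a gene relative to the total count of its library, scaled between libraries by edgeR's TMM factors (a trimmed mean of the log ratios between libraries). Changes are log2 fold changes, Phf8 shRNA over control shRNA, with their standard error (SE). Phf8 itself was at 53.3 and 53.0 CPM in control replicates 1 and 2 and at 44.3 and 42.2 CPM in the Phf8 shRNA replicates, which is 18.5% less (log2 fold change -0.30 ± 0.06 SE, n = 2 per group, adjusted p = 1.72e-06 by the quasi-likelihood test of edgeR, with Benjamini-Hochberg adjustment over 21042 genes). The knockdown seen in RNA was thus small, although the groups did not overlap. The groups differed at many other genes, and a gene was said to rise or fall where the adjusted p was under 0.05, which 52.1% of all tested genes and 60.4% of the tested protein-coding genes reached. Mitochondrial ribosomal RNA took 21.2% and 22.5% of the reads in the control and 27.8% and 28.2% in the Phf8 shRNA libraries. Astrocyte markers were present in all libraries, but 5 of 9 fell (Gfap and Aqp4 among them) and 3 of 9 rose (Slc1a2, Glul and Gja1). The largest change of this list was the rise of Slc1a2, with a log2 fold change of 2.85. Summed, the list reached 9317 to 9565 CPM with the control hairpin, against 6355 to 7075 CPM with the hairpin against Phf8. Much of that sum was Gfap, with group means of 3971 and 1172 CPM, so the sum does not stand for every marker of the list. All 9 oligodendrocyte lineage markers rose (515.5 to 540.1 against 953 to 1008 CPM summed, none at 0), as did 6 of 7 tested neuron markers (1133 to 1174 against 1853 to 1859 CPM, with Slc17a7 at 0 reads in both control libraries). Microglia markers summed to 3.06 to 3.81 CPM in any library. Of 5 tested endothelial markers 1 fell (Kdr), the list summed to 6.01 to 6.28 CPM in control and 2.10 to 2.29 CPM in Phf8 shRNA libraries, and Cdh5 was at 0 in all of them. The part of these shifts in the values below was not tested, and in bulk RNA fewer cells of a type and less RNA per cell cannot be told apart.

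Most of the zinc finger genes changed little, and those that changed most were lower with Phf8 shRNA. Of the 127 members 105 had enough reads to be tested. Of these, 16 rose and 26 fell, and 63 did not pass the test. The 40.0% of tested members that changed lie below the 52.1% of all genes (24.8% higher and 27.3% lower) and the 60.4% of protein-coding genes (25.2% higher and 35.2% lower) that did. At a change of at least 1.5-fold (0.58 on the log2 scale) 0 members rose and 10 fell, while 12.1% of all tested genes rose and 13.9% fell by that much. The median log2 fold change of the tested members was -0.04, against 0.01 over all genes and -0.04 over protein-coding genes. Their summed level was 2294 and 2363 CPM in the control libraries and 2323 and 2308 CPM in the Phf8 shRNA libraries, so the summed levels of the groups overlapped. In each of the 42 members that changed, the values of the 2 groups did not overlap. The same held for 26 of the 63 members that did not pass, so a lack of overlap does not by itself mark a change. The share of all genes without overlap was not counted, so these counts do not set the members apart from other genes. The balance depends on the scaling: 38.1% of the changed members were higher with TMM, 53.3% with upper quartile scaling, 23.7% with library size alone and 28.2% without a filter on low counts, and the sign of the members' median turned to 0.04 with upper quartile scaling and 0.02 without control replicate 2. Without control replicate 1 the count of members higher was 9. With upper quartile scaling 24 members rose and 21 fell, where 54.4% of all genes changed, 31.6% upward and 22.9% downward. With DESeq2 8 rose and 18 fell, where 38.1% of all genes changed, 16.6% upward and 21.5% downward.

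The mouse Zfp genes with numbers under 700 held more rises than falls. Of their 224 tested genes 75 rose and 44 fell, with a median of 0.09, while library size alone gave 59 and 57. The sets were not compared by a test. KRAB genes with 3 or more fingers that are not members numbered 151 among the tested genes, of which 38 rose and 30 fell, with a median of 0.02.

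Fingers were counted in the longest annotated coding sequence of each gene, and a KRAB box was sought in all of its coding sequences. A KRAB box pattern was found in 103 members, 113 had 3 or more C2H2 fingers, and the largest number was 23 fingers, in Zfp748 and Zfp788. Among the 84 tested members with a KRAB box 9 rose and 22 fell, with a median of -0.05. That is 10.7% higher and 26.2% lower, beside 24.8% and 27.3% of all genes and 25.2% and 35.2% of protein-coding genes. Among the 21 tested members without a KRAB box 7 rose and 4 fell (33.3% and 19.05%), with a median of 0.02. Upper quartile scaling gave 17 rises and 19 falls for the KRAB members and 7 and 2 for those without. The number of fingers was alike in members that fell (median 11), rose (median 10.5) and did not pass (median 11). The members that fell had a median level of 15.3 CPM, those that rose 26.3 CPM, and those that did not pass 10.1 CPM. The plot of level against fold change shows members of both classes at low and at high levels.

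**Figure D1:**
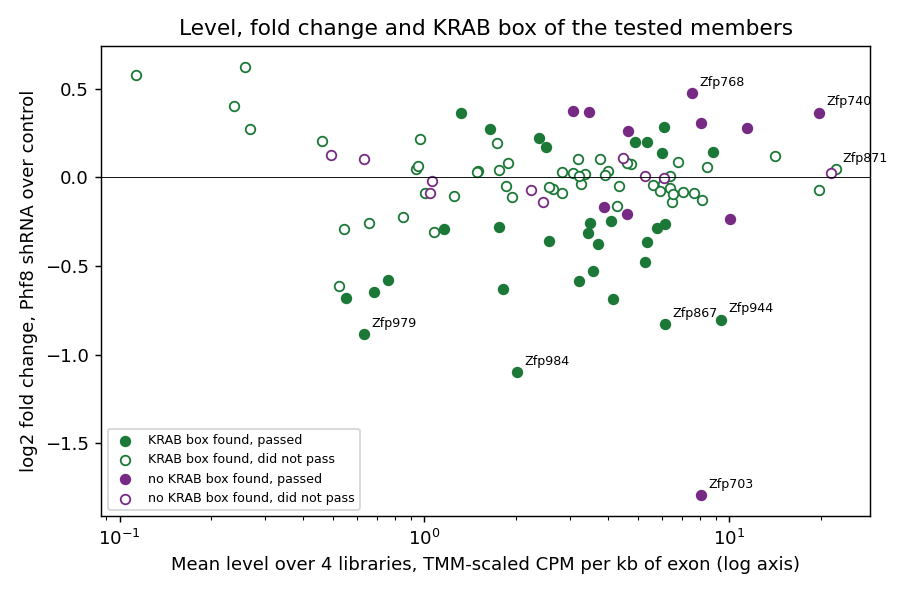
Log2 fold change (Phf8 shRNA over control shRNA) of the 105 tested members against their mean level in TMM-scaled CPM per kb of exon (log axis). Each point is 1 gene, coloured by whether a KRAB box was found and filled where the gene passed the test. Zfp703 lies lowest at -1.79, and most points lie within 0.5 of the zero line.

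Among the KRAB members the falls lay mostly within clusters. A cluster was defined as at least 3 members on a chromosome whose neighbouring members lie at most 1 Mb apart. This gave 14 clusters, named here by chromosome with a letter where a chromosome holds several, with 91 members, and left 36 members outside. Of the 65 tested KRAB members in clusters 5 rose and 21 fell (7.69% and 32.3%), with a median of -0.07. Of the 19 tested KRAB members outside clusters 4 rose and 1 fell (21.05% and 5.26%), with a median of 0.04. Among all tested protein-coding genes 25.2% rose and 35.2% fell. With upper quartile scaling 12 rose and 18 fell in clusters and 5 rose and 1 fell outside, and with library size alone 2 rose and 23 fell in clusters and 0 rose and 2 fell outside. Of the 26 members that fell, 10 were in the proximal cluster of chromosome 17 (17a) and 3 in the cluster of chromosome 4. In the other 12 clusters together 7 of 51 tested members rose and 8 fell (12 and 7 with upper quartile scaling), with a median of 0.01. The difference between clusters was not tested.

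**Figure D2:**
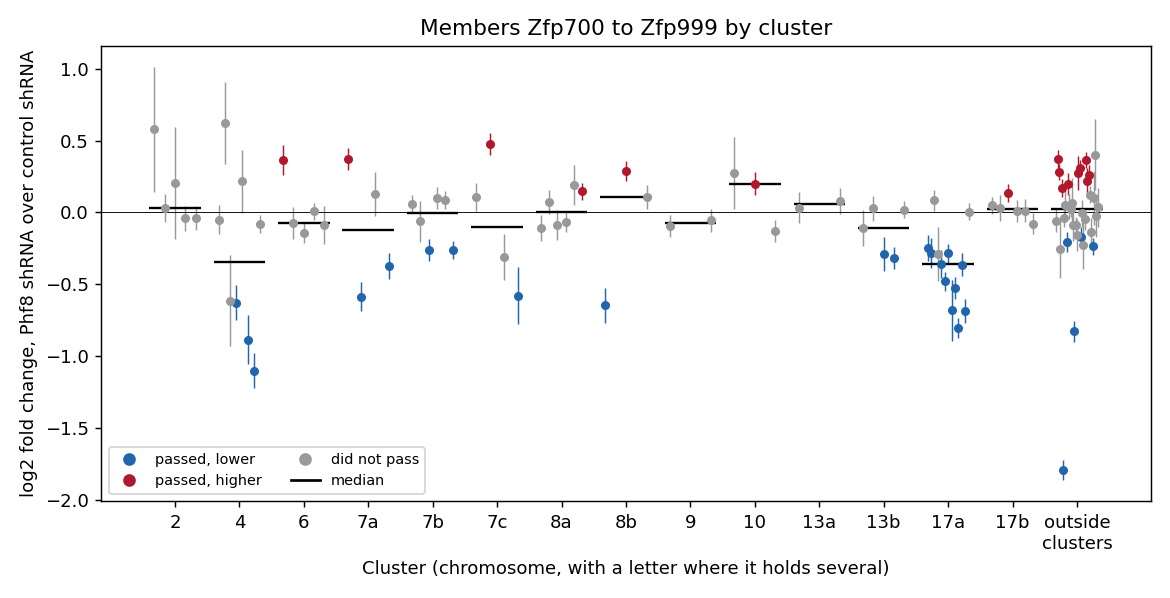
Log2 fold changes of the tested members by cluster, in chromosomal order within each cluster, with bars of 1 SE and a black line at the median. In cluster 17a 10 of 13 members are marked as lower and none as higher, and the lowest point of the plot is Zfp703, outside the clusters.

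Cluster 17a spans 1.3 Mb at chr17:21567008-22867134 (mm10). All of its 13 members carry a KRAB box, were tested and had no more than 20.1% of their 50-base stretches in another gene. Of the 13, 10 fell and 0 rose, and the median was -0.36. No member rose at an unadjusted p under 0.05 in edgeR, and 0 rose with DESeq2 or limma-voom, while the members that fell numbered 7 with DESeq2 and 10 with limma-voom. Their summed level was 259.6 to 280.1 CPM in the control and 215 to 222 CPM in the Phf8 shRNA libraries. The groups thus did not overlap in the sum either.

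Zfp944 (chr17:22337989-22361400, minus strand) had the lowest log2 fold change of the cluster. It was at 31.3 and 35.4 CPM in the control and at 19.8 and 18.2 CPM in the Phf8 shRNA libraries, a log2 fold change of -0.80 ± 0.07 (SE; edgeR adjusted p = 7.47e-31). Zfp946, which starts beyond Zfp758 along the chromosome, was at 16.9 and 19.0 against 10.8 and 11.6 CPM, a log2 fold change of -0.68 ± 0.08 (edgeR adjusted p = 6.43e-16). Both genes had every control value above every Phf8 shRNA value. Zfp947 had a similar log2 fold change of -0.68 ± 0.21 at a far lower level, 2.01 and 1.91 against 1.34 and 1.09 CPM, and lost its call with DESeq2 (adjusted p = 0.0769). Zfp994 was at 19.9 and 21.2 against 14.5 and 13.95 CPM (-0.53 ± 0.08), and Zfp942 was at 30.3 and 34.6 against 23.6 and 22.8 CPM (-0.48 ± 0.07). The remaining 5 that fell, Zfp758, Zfp995, Zfp943, Zfp983 and Zfp948, lay between -0.36 and -0.25.

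The cluster was not uniform. Zfp945, its most abundant member by CPM and the last along the chromosome, was at 63.7 and 66.2 CPM in the control and 67.2 and 63.3 CPM in the Phf8 shRNA libraries, so the groups overlapped (0.01 ± 0.06). Zfp760 was at 19.3 and 18.4 against 20.7 and 19.2 CPM (0.08 ± 0.07). Zfp820 was at 2.38 and 2.08 against 1.85 and 1.80 CPM (-0.29 ± 0.19; edgeR adjusted p = 0.194). At this level of about 2 CPM it was lower in both Phf8 shRNA libraries but did not pass. Zfp945 is separated from Zfp946 by the widest interval of the cluster.

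**Figure D3:**
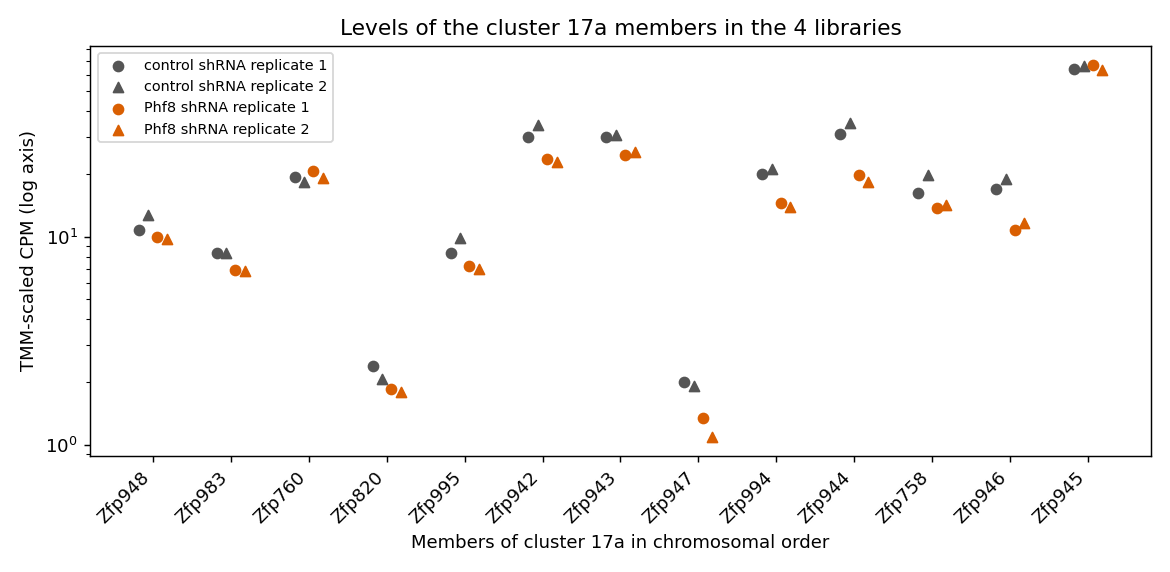
Levels of the 13 members of cluster 17a in TMM-scaled CPM (log axis) in each library, in chromosomal order. Grey symbols are control shRNA and orange symbols Phf8 shRNA, with circles for replicate 1 and triangles for replicate 2. Grey lies above orange in 11 members, while the symbols of Zfp945 overlap and those of Zfp760 lie close together.

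The lower levels were not limited to genes of this numbering. Between the members lie 2 other tested zinc finger genes, Zfp229 and CT030661.1, and both fell (-0.37 ± 0.07 and -0.47 ± 0.07). Gm10226, the other tested gene there, for which no fingers could be counted, fell as well (-0.97 ± 0.22). Within 500 kb before the first member, a window chosen after the values were seen, 4 of 5 tested zinc finger genes fell (Zfp51, Zfp52, Zfp53 and Zfp677, from -0.72 to -0.25), and Zfp54 did not pass the test (-0.22 ± 0.19). Within 500 kb after the last member the tested zinc finger gene Zfp40 did not pass (-0.07 ± 0.06). Without control replicate 2, 6 members of the cluster fell and the median was -0.27. With upper quartile scaling 8 fell and Zfp760 rose, and the median was -0.28. With the coefficient of variation between replicates set to 0.2, in place of the 3.64% estimated here, 1 member fell, as did 9.71% of all genes.

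**Figure D4:**
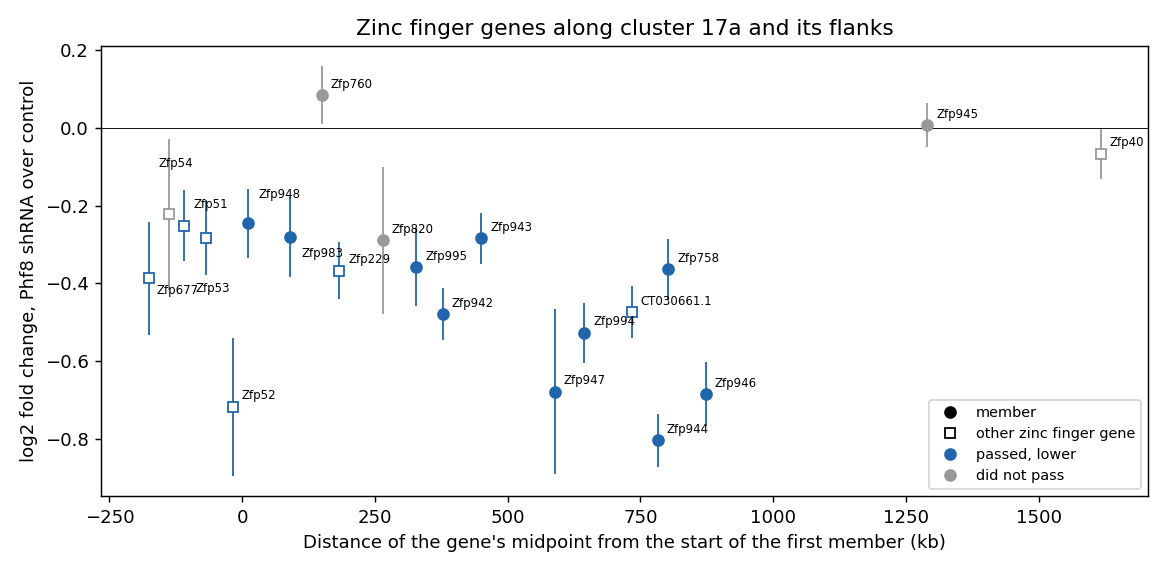
Log2 fold change with 1 SE of the zinc finger genes in and around cluster 17a, against the distance in kb of each gene's midpoint from the start of the first member. Filled circles are members and open squares other zinc finger genes, blue where the gene fell and grey where it did not pass. The genes in the left and middle lie below zero except Zfp760, and Zfp945 and Zfp40 on the right lie near zero.

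The promoters of this cluster are in part related in sequence, and stretches of them are shown because several members that fell carry the same short motif. RefSeq sequence (GRCm38.p6) of 250 bases before and 50 after the start was given for 109 of the 127 members, and for all 13 of cluster 17a. After these sequences were seen, the 8 bases CACGTGAC, which hold the E-box core CACGTG, were searched on both strands. The stretches below run 5′ to 3′ with those 8 bases in capitals where they occur, on the minus strand, and for Zfp760 on the plus strand. For Zfp945 and Zfp760, which lack them, the stretch that aligned best with that of Zfp946 is shown. Zfp948, Zfp983 and Zfp995 also lack them but fell, and their stretches are not shown. Those of Zfp946, Zfp943 and Zfp758, which hold them and fell, are not shown either.
Zfp942, chr17:21962485-21962544, fell: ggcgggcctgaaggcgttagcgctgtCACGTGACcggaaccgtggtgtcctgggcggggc
Zfp944, chr17:22361396-22361455, fell: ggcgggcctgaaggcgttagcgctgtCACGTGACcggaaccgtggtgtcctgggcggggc
Zfp947, chr17:22166015-22166074, fell: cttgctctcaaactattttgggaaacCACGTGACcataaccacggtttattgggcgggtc
Zfp994, chr17:22225741-22225800, fell: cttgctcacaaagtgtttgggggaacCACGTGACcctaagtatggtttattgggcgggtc
Zfp820, chr17:21845845-21845904, did not pass: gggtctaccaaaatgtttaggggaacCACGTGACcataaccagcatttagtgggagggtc
Zfp945, chr17:22867182-22867241, did not pass: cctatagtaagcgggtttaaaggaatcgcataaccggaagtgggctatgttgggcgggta
Zfp760, chr17:21707589-21707648, did not pass: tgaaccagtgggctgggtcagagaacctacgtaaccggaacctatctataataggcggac

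The stretches of Zfp942 and Zfp944 are identical over all 60 bases, and their 300-base windows are 91.3% identical. Each of these genes has a neighbour that starts close by in the opposite direction. Zfp943 begins 87 bases from Zfp942 and Zfp758 begins 52 bases from Zfp944, and the windows of Zfp943 and Zfp758 are 97.3% identical to each other. Each pair shares a single occurrence of the motif. The 8 bases were found in the windows of 8 of the 13 members, at 6 separate positions (Zfp942, Zfp943, Zfp944, Zfp758, Zfp946, Zfp947, Zfp994 and Zfp820). Of these 8 genes 7 fell, with a median of -0.50. Of the 5 without the motif 3 fell (Zfp948, Zfp983 and Zfp995), with a median of -0.25. Over all 32851 windows given by RefSeq the motif occurred in 2.25%. By gene it was found in 3.29% of 16513 protein-coding genes and in 4 of the 96 other members with a window (Zfp871, Zfp747, Zfp819 and Zfp933), of which 3 were tested and 0 passed edgeR's test (1 at an unadjusted p under 0.05, 0 with DESeq2 or limma-voom). Over all protein-coding genes those with the motif had a median log2 fold change of -0.02 and those without it -0.04. A match describes only the letters in the window.

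The cluster of chromosome 4 (chr4:145510759-147848366) held 16 members, all with a KRAB box, of which 8 were tested. Of these 8, 3 fell and 0 rose (1 higher at an unadjusted p under 0.05, 0 rose with DESeq2 or limma-voom), and the median was -0.35. Zfp984 was at 7.79 and 8.21 CPM in the control and 3.52 and 3.98 CPM in the Phf8 shRNA libraries, a log2 fold change of -1.10 ± 0.12 (edgeR adjusted p = 4.33e-19). Zfp979 was at 3.26 and 3.50 against 1.76 and 1.91 CPM (-0.88 ± 0.17), and Zfp991 was at 6.13 and 6.75 against 4.30 and 4.00 CPM (-0.63 ± 0.12). The groups of these 3 genes did not overlap. These genes share sequence with others: 54.5% of the 50-base stretches of Zfp984, 26.7% of those of Zfp979 and 82.2% of those of Zfp991 also occur in another gene, so how the authors' counting treated reads with several matches could split or drop them, and the values are uncertain. Zfp933, the single tested member of the cluster with few shared stretches (1.05%), was at -0.08 and did not pass. With members of at least 10% shared stretches left out, a choice made after the values were seen, 0 members of this cluster and 6 of cluster 17a fell. Zfp933 was then the only tested member left in this cluster. From cluster 17a this choice took out Zfp944, Zfp947, Zfp994 and Zfp995, all of which had fallen.

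On chromosome 7 members of the same cluster moved in opposite directions. In the cluster near the imprinted gene Peg3 (7a, 4 members tested) Zfp787 rose, from 14.4 and 14.7 CPM to 17.95 and 19.8 CPM (0.37 ± 0.08). Zfp954 fell from 9.46 and 8.996 CPM to 6.27 and 6.02 CPM (-0.59 ± 0.10), and Zfp772 fell by 0.37 ± 0.09 on the log2 scale. The 2 that fell have a KRAB box and Zfp787 has none. Zfp773, also without a KRAB box, did not pass (0.13 ± 0.15). In cluster 7c, 0.16 Mb long, Zfp768 rose from 16.8 and 15.1 CPM to 23.2 and 21.2 CPM, which was the highest log2 fold change among the members that rose (0.48 ± 0.07; edgeR adjusted p = 7.68e-10). It has 10 fingers and no KRAB box. Zfp764 of the same cluster, with a KRAB box, fell from 2.36 and 2.20 CPM to 1.46 and 1.61 CPM (-0.58 ± 0.19), and did not pass with DESeq2 (adjusted p = 0.105), without control replicate 1 or without Phf8 shRNA replicate 1. Zfp747, which lies between them, did not pass (-0.31 ± 0.16). Zfp771, which like Zfp768 has no KRAB box, did not pass either (0.11 ± 0.10). In cluster 7b 2 of 6 tested members fell, Zfp976 and Zfp719, both by 0.26 on the log2 scale. Zfp719 kept its call in all 13 alternatives, while Zfp976 lost it in 3 and was at -0.14 without control replicate 2. Here and below, the 13 alternatives are the other scalings, count filters and tests, the replicate block and the fits without certain libraries or genes. They do not include the stricter thresholds or the fixed coefficients of variation. With that coefficient at 0.2, 5 members fell and 0 rose, where 15.7% of all genes changed.

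Neighbours in cluster 8b on chromosome 8 also moved in opposite directions. Zfp709 fell from 6.496 and 6.70 CPM to 3.82 and 4.66 CPM (-0.65 ± 0.12; edgeR adjusted p = 4.82e-07). Zfp882, whose start lies next along the chromosome, rose from 19.2 and 19.9 CPM to 23.9 and 23.8 CPM (0.29 ± 0.07; edgeR adjusted p = 0.000185). Zfp617, a zinc finger gene that is not a member, starts within Zfp882 on the same strand and fell (-0.38 ± 0.08; edgeR adjusted p = 3.8e-06). Other genes on that strand overlap 2.91% of the exons of Zfp882, and how shared reads were counted is not stated. All 3 members of this cluster have a KRAB box, and the remaining Zfp961 did not pass (0.11 ± 0.08). In cluster 8a Zfp866 rose by 0.15 ± 0.06 on the log2 scale, a call lost in 5 of 13 alternatives, and the other 5 members did not pass.

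The other clusters held few changes. In 13b, near the Rsl genes that repress sex-limited liver proteins, Zfp748 and Zfp953 fell (-0.32 ± 0.07 and -0.29 ± 0.12) among 5 tested, and Zfp953 lost its call in 4 of 13 alternatives. In cluster 6 Zfp786 rose (0.37 ± 0.11, a call lost in 2 of 13 alternatives), while Zfp746 (PARIS), a repressor of the PGC-1alpha gene in which the pattern found no KRAB box, was at 39.9 and 44.6 CPM in the control and 42.4 and 42.4 CPM with Phf8 shRNA (0.01 ± 0.06). In the distal cluster of chromosome 17 (17b), beyond 17a on the same chromosome, 5 of 6 members did not pass and Zfp799 rose by 0.14 ± 0.06 (edgeR adjusted p = 0.0469), a call that 10 of 13 alternatives did not keep. In cluster 10 Zfp873 rose (0.20 ± 0.08), a call lost in 6 of 13 alternatives. In clusters 2, 9 and 13a 0 of 9 tested members passed edgeR's test, 0 had an unadjusted p under 0.05, and 0 passed DESeq2 or limma-voom. Cluster 9 includes Zfp809, which silences retroviral proviruses through Trim28, at 20.3 and 19.6 against 19.2 and 18.2 CPM (-0.09 ± 0.07; edgeR adjusted p = 0.295). Its groups did not overlap, but the difference did not pass.

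Of the 36 members outside clusters 33 were tested, 9 rose and 5 fell, and the median was 0.02. With library size alone 5 rose and 6 fell. Zfp703 (chr8:26977325-26981461, plus strand) showed the largest change of all members. It encodes a corepressor of the NLZ type with no KRAB box, and was at 43.2 and 42.0 CPM in the control and 12.7 and 11.8 CPM in the Phf8 shRNA libraries, a log2 fold change of -1.79 ± 0.07 (edgeR adjusted p = 1.44e-138), or 3.47-fold lower. A gene on the opposite strand overlaps 13.5% of its exons, and whether the counting used strand is not stated in the labels. Zfp867 (chr11:59461197-59472474, minus strand), a KRAB gene with 10 fingers and no shared stretches, was at 25.9 and 27.9 against 16.2 and 14 CPM (-0.83 ± 0.07; edgeR adjusted p = 1.54e-28). The other 3 that fell outside clusters, Zfp770, Zfp800 and Zfp710, lay between -0.24 and -0.17.

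The members outside clusters that rose changed by less than Zfp703 and Zfp867. Zfp740 was at 87.9 and 87.2 CPM in the control and 113.5 and 112.1 CPM with Phf8 shRNA (0.37 ± 0.06; edgeR adjusted p = 2.93e-10). Zfp865 rose from 30.03 and 29.7 CPM to 37.5 and 39.8 CPM (0.37 ± 0.06), with 20.7% of its exons under a gene of the opposite strand. Zfp827, whose product recruits the NuRD complex to telomeres, rose from 64.6 and 64.2 CPM to 78.4 and 80.9 CPM (0.31 ± 0.06). In these 3 genes both Phf8 shRNA values lay above both control values. Zfp704 rose by 0.28 ± 0.06, Zfp707 by 0.27 ± 0.12, Zfp821 by 0.26 ± 0.06 and Zfp951 by 0.22 ± 0.09, of which Zfp707 and Zfp951 lost their call in 6 and 5 of 13 alternatives.

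The members with the highest level for their length changed little. Per kb of exon the mean over the 4 libraries was 22.3 CPM for Zfp871 (17b), 21.5 for Zfp706, 19.7 for Zfp740, 19.6 for Zfp869 (8a) and 14.1 for Zfp932. Of these 5 genes Zfp740 alone passed the test. Zfp871 was at 240.4 and 246.3 CPM in the control and 256.7 and 246.9 CPM with Phf8 shRNA, and Zfp932, a KRAB protein that binds endogenous retroviruses, was at 42.6 and 45.6 against 48.2 and 47.8 CPM (0.12 ± 0.06; edgeR adjusted p = 0.0665).

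The 22 members that could not be tested had 0 to 26 reads over the 4 libraries together, and 7 had none. Of these 22, 19 lie in clusters and 13 share over 50% of their 50-base stretches with another gene. Zfp872 (cluster 9), with no shared stretch, had 17 reads in the control and 4 in the Phf8 shRNA libraries, a ratio of 4.04 with a 95% exact counting interval of 1.32 to 16.5. Zfp985 (cluster 4) had 12 and 1 reads, a ratio of 11.4 (1.69 to 487.1). Zfp708, in cluster 13b, had 5 and 4 reads. Of the other untested members for which a ratio was taken, Zfp986 and Zfp819 also lay above 1 (1.16 and 3.80). Zfp966, Zfp988, Zfp784 and Zfp957 lay below it (0.63, 0.70, 0.66 and 0.53). Apart from Zfp872 and Zfp985, all of the intervals include 1. These intervals cover counting error only and not the spread between libraries.

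The machinery through which KRAB proteins act was measured in the same fit. As background, 24.8% of all tested genes rose and 27.3% fell, and 25.2% and 35.2% of the protein-coding genes. The lists below were not tested against this background. Their counts alone therefore do not set the listed genes apart from other genes. Of 16 genes of the KRAB corepressor and HP1 list 4 rose and 5 fell, with a median of 0.04 (2 and 6 with library size alone, 8 and 4 with upper quartile scaling). Trim28 was at 138.6 and 133.1 CPM in the control and 148.7 and 139.9 CPM with Phf8 shRNA and did not pass (0.09 ± 0.06; edgeR adjusted p = 0.180). Among the HP1 genes Cbx5 (HP1alpha) fell by 0.62 ± 0.06 and Cbx1 (HP1beta) by 0.44 ± 0.06 on the log2 scale, while Cbx3 (HP1gamma) rose by 0.32 ± 0.06. In the HUSH complex and ATRX list 0 of 6 genes passed edgeR's test and 1 had an unadjusted p under 0.05, while 1 passed limma-voom, 0 passed DESeq2 and 3 rose with upper quartile scaling. Of the 10 genes of the H3K9 methyltransferase list, which also holds Wiz, 4 rose and Mecom fell, with a median of 0.09. Those that rose were Prdm16 (0.43 ± 0.06), Ehmt1 (0.32 ± 0.06), Prdm2 (0.17 ± 0.06) and Setdb1 (0.14 ± 0.06). Of 12 H3K9 demethylase genes 6 rose, led by Kdm4b (0.47 ± 0.06) and Phf2 (0.41 ± 0.06), and 2 fell, Kdm7a (-0.45 ± 0.06) and Phf8, with a median of 0.17.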

How the data were processed

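Total RNA of 4 astrocyte samples was sequenced after ribosomal RNA depletion with a stranded kit, per the labels' protocols. The submitters' processing notes name HISAT2, HTSeq, DESeq2 and the mm10 build. The deposited files hold whole-number read counts per gene, with no version, setting or annotation release stated there. Symbols, gene types, exons and coding sequences were taken from GENCODE M21.

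Counts of all genes were tested with the two-sided quasi-likelihood test of edgeR 4.0.16 in R 4.3.3 (filterByExpr, TMM, no covariates), with Benjamini-Hochberg adjustment over 21042 genes. On simulated counts among 20639 genes it recovered, of 50 genes changed by each fold, 36 for 1.25-fold and 47 for 1.5-fold, then 49 for 2-fold and all 50 for 4-fold, with 8 false calls. The changed genes were drawn from those with higher counts only, and the spread was the one estimated from these same libraries. Far fewer genes changed than in the data. The recovery and the false calls therefore do not carry over to members with few reads or to a larger spread between cultures. Same-numbered replicates did not deviate together (r = -0.001), so the replicate number was not used in the test.

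The members, gene lists and clusters were chosen with earlier results of these data known. Genes to be named were picked by a rule. It took the 12 higher and 12 lower changed members with the largest changes at 1 CPM or more and the 5 highest per kb. It also took up to 3 in each cluster (the 2 smallest p-values and the largest) and up to 3 of each list. Some cluster picks are not named in the Results, and all of these are members that did not pass. They are Zfp759, Zfp763, Zfp777, Zfp781, Zfp808, Zfp810, Zfp870, Zfp934, Zfp938, Zfp963, Zfp964, Zfp970, Zfp972, Zfp973, Zfp977 and Zfp992. The genes described singly thus lean towards those that changed. All members of cluster 17a, its neighbours and some further genes were named after their values were seen. Alternatives were other scalings, filters and thresholds, DESeq2 1.42.0, limma-voom (limma 3.58.1), the replicate block, leaving out each library, scaling without mitochondrial genes and the 20 most abundant, other cluster gaps, and, chosen after seeing the data, a fixed coefficient of variation and only members with under 10% shared 50-base stretches.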

Additional observations from a re-analysis of the deposited data

How the results depend on the processing

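No change of a member turned direction in a setting that called it. The main counts were 16 members higher and 26 lower, 10 lower in cluster 17a and 3 lower in cluster 4. Members higher numbered 9 with library size alone, 8 with DESeq2, 9 at an adjusted p under 0.01 and 0 at 1.5-fold or more, where 10 were lower. With a coefficient of variation of 0.1 there were 4 higher, 13 lower, 5 lower in 17a and 7210 genes changed in all. With 0.2 the counts were 0, 5, 1 and 3305. With members of under 10% shared stretches only, 74 tested members were left, with Zfp933 alone in cluster 4. Of these 74, 17 were lower, 6 of them in 17a and 0 in cluster 4, and their median was -0.0137. Library size alone gave medians of -0.0921 for the members and -0.400 for cluster 4. Upper quartile scaling gave 0.0425, -0.28 for 17a and -0.265 for cluster 4, and no low-count filter gave -0.42 for cluster 4. Leaving out each library gave 9 to 14 higher, 21 to 23 lower, 6 to 10 lower in 17a, 9053 to 10235 genes changed, and medians of -0.0521 to 0.0249 for the members, -0.48 to -0.27 for 17a and -0.35 to -0.23 for cluster 4. The causes were not tested. With the replicate block 15 members were higher and 26 lower, all 41 of them among the 42 of the main test. With 2 libraries per group and 36839530 to 44724759 reads each, the standard errors at about 2 CPM were 0.19 (Zfp820) and 0.21 (Zfp947).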
